A study of Mus musculus with 2 samples.

Results

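The sodium-hydrogen exchangers described here are 7 genes of the SLC9 family, Slc9a2, Slc9a3, Slc9a4, Slc9a5, Slc9a7, Slc9a8 and Slc9a9, chosen by gene symbol among the 31821 gene names carried by the non-control probes of an Agilent mouse expression array. They are read by 10 probes of 60 bases each out of 39416 gene probes. Kidneys of Cnnm2fl/fl;Six2-Cre mice, called knockout here, were compared with those of Cnnm2+/+;Six2-Cre mice, called control, all at 2 months of age, so both genotypes carried the Cre transgene and the Cnnm2 alleles differed. Six2-Cre drives a Cre fused to green fluorescent protein in the embryonic kidney, and no treatment was given. Array 1 had the knockout in Cy5 and the control in Cy3, and array 2 the reverse. The number of mice is not given in the sources used here, so the 2 arrays were taken as the same RNA labelled both ways, with 1 replicate per genotype and no test between genotypes. Every error below is the SD of the 2 arrays and covers labelling and hybridization, not differences between animals.

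Sodium-hydrogen exchangers carry sodium in one direction across a membrane and protons in the other, and so set the pH of the cytosol or of an organelle and move salt across epithelia. NHE3, the product of Slc9a3, sits in the apical membrane of the proximal tubule and the thick ascending limb and carries much of the kidney's sodium and bicarbonate reabsorption. NHE2, NHE4 and NHE5 (Slc9a2, Slc9a4 and Slc9a5) also work at the plasma membrane, whereas NHE7, NHE8 and NHE9 (Slc9a7, Slc9a8 and Slc9a9) are mostly found in membranes of the Golgi and endosomes, with NHE8 also at the apical membrane of the proximal tubule.

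Of the 10 probes, 7, from 5 genes, were well above background in all 4 channels (2 genotypes on 2 arrays), and the remaining 3 in none. Their sequences are shown because the place each reads on the transcript separates the probes of Slc9a3 and of Slc9a8. In 4 of the 7 the probe holds AATAAA or ATTAAA, the hexamers of the polyadenylation signal (capitals), and a stretch of 30 bases around it is printed. The same is true of the Slc9a5 probe, so 5 of the 10 exchanger probes hold a hexamer on the printed strand, against 16.7% of all gene probes; a match of these letters is a description and not a site of use. A pair of probes, one of Slc9a3 and one of Slc9a8, lies over more genome than its own length and so crosses at least one exon junction, and these are printed whole. For Slc9a2, which holds no hexamer, the last 30 bases of the probe are given. All run 5′ to 3′ as DNA in the sense of the transcript:

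Slc9a2 A_55_P2106768: ggtggcagcttctgagaagtcctaccagtg
Slc9a3 A_55_P2362635: ttgcttatgtctATTAAAaacactttgagg
Slc9a3 A_52_P82701: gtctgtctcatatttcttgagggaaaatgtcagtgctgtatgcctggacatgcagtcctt
Slc9a4 A_55_P1973588: ggcaaccagatcAATAAAtatcctttgcca
Slc9a7 A_55_P2142758: aagtgtctctaaATTAAAcacaaatgcaga
Slc9a8 A_55_P1997741: actggatagttagaAATAAAgtgctatgta
Slc9a8 A_52_P296996: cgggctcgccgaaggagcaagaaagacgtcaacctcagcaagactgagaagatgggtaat

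None of the 7 exchanger probes above background changed by 2-fold in the same direction on both arrays, the size limit of the study's methods. Among all 24594 probes above background in at least one genotype on both arrays, 0.313% were at least 2-fold higher and 0.26% at least 2-fold lower in the knockout by this rule. None passed 1.5-fold either, where the shares over all probes were 1.02% higher and 0.968% lower. The mean log2 ratios of knockout over control ran from -0.28 to 0.21, with a median of 0.11, beside a median of -0.003 over all probes. Over the 7 probes the median was -0.09 on array 1 and 0.28 on array 2, of opposite sign. With the 5 genes each read at the brightest probe it was 0.06 and 0.13. With background-subtracted signals, centred on each array's median without the scanner's dye normalization, it was 0.22 and 0.18 over the 7 probes. With loess it still turned sign, at -0.101 and 0.075 after the normal-exponential correction and -0.094 and 0.172 with no correction. The turn of sign thus depends on the probes and the processing. Only Slc9a2 and the hexamer-bearing probe of Slc9a3 had the same sign on both arrays, which is 2 of 7 or 28.6%, and the share over all probes was 27%. Both lost this with the background-subtracted signals, which have no dye normalization beyond that centring. Slc9a2 then gave 0.22 and -0.11, and the Slc9a3 probe 0.28 and -0.10. Slc9a2 lost it also with the normal-exponential correction and loess (0.14 and -0.002). The Slc9a3 probe kept its sign under both loess settings, at 0.085 and 0.126 with that correction and 0.063 and 0.135 without.

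**Figure D1:**
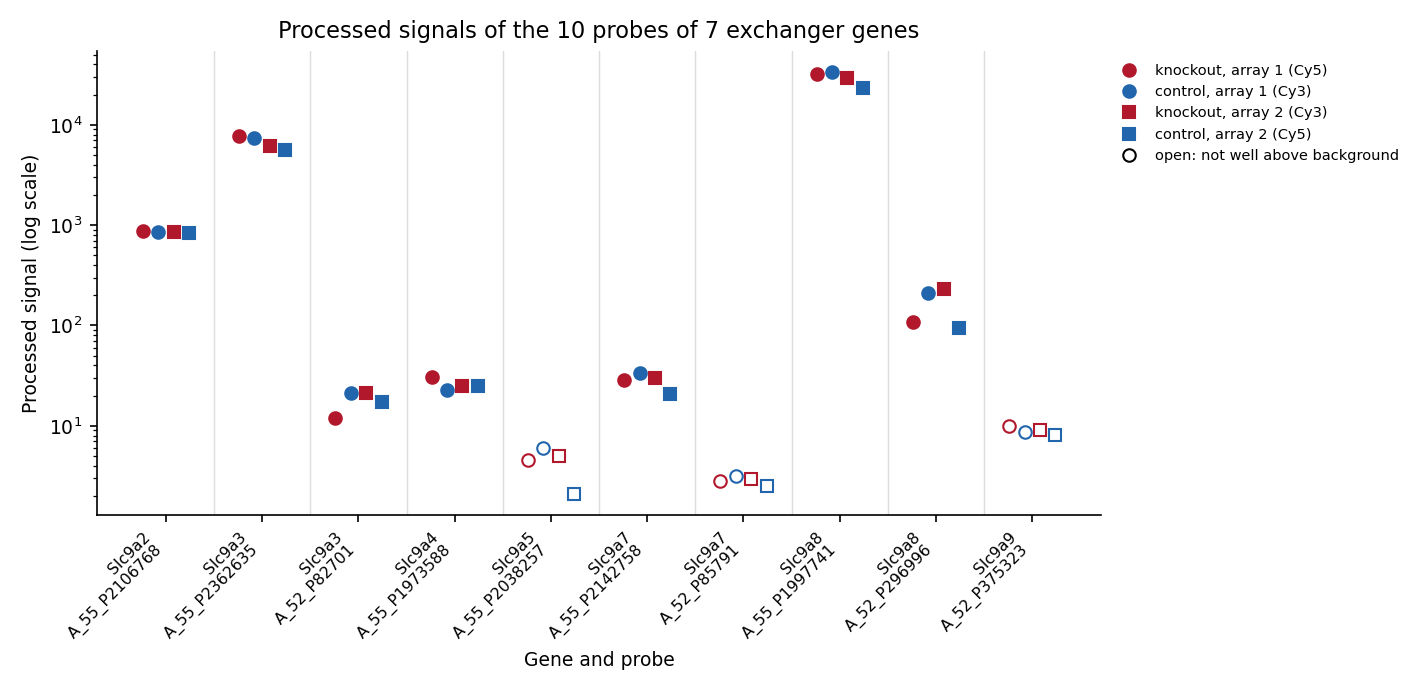
Processed signals (log scale) of the 10 exchanger probes, with knockout in red and control in blue, array 1 as circles and array 2 as squares, and open symbols for probes not well above background. Points may be compared within a probe, not between probes. The 4 points of Slc9a2 lie between 842 and 884, whereas those of Slc9a8 A_52_P296996 are 108 and 95.3 in the Cy5 channels and 210 and 232 in the Cy3 channels.

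Slc9a3 was read at a pair of places. The probe A_55_P2362635 lies on the plus strand of chr13:74306830-74306889 (mm9) and was designed on a cDNA clone from colon. Its processed signals on array 1 were 7827 in the knockout and 7457 in the control, and on array 2 they were 6188 and 5648. The knockout was the brighter on each array, although both genotypes were dimmer on array 2 than on array 1, and every array 1 signal was above every array 2 signal. The log2 ratios of 0.07 and 0.13 had a mean of 0.10 ± 0.04 (SD of 2 arrays) or 1.07-fold. Of all probes above background, 48.4% had a mean ratio larger in size. The other probe, A_52_P82701, covers chr13:74300566-74301172, a span of 607 bases for a probe of 60, so 547 bases of genome between its ends are not in it. It gave 11.9 in the knockout and 21.4 in the control on array 1, and 21.0 and 17.3 on array 2. The lowest and one of the highest of these 4 signals both belonged to the knockout. The log2 ratios were -0.84 and 0.28, a mean of -0.28 ± 0.79 (SD of 2 arrays). The means of the Slc9a3 probes therefore had opposite signs, and the negative one was smaller in size than its own SD between arrays.

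Slc9a2, whose exchanger is apical in the distal tubule, is read by 1 probe at chr1:40825584-40825643, plus strand. Its signals were 884 in the knockout and 846 in the control on array 1, and 857 and 842 on array 2. Here both knockout signals stood above both control signals. The log2 ratios of 0.06 and 0.03 gave a mean of 0.04 ± 0.03 (SD of 2 arrays), or 1.03-fold, and 75.9% of all probes above background had a larger mean in size. Within an array, the 399 probes printed 10 times had a median SD of 0.05 between spots on each array, on the same log2 scale, so the Slc9a2 ratios are of the size of the spread between repeated spots.

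Slc9a4 encodes the basolateral exchanger NHE4, best known from the stomach and the thick ascending limb. Its probe at chr1:40687517-40687576 gave 30.6 in the knockout and 22.7 in the control on array 1, but 24.92 and 24.97 on array 2. The knockout was brighter on array 1 alone. The log2 ratios of 0.43 and -0.003 had a mean of 0.21 ± 0.31 (SD of 2 arrays), the highest mean among the 7 probes, and its size did not exceed the SD between arrays.

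Slc9a8, the Golgi and apical exchanger NHE8, had the largest difference between arrays among the 7 probes, and its probes behaved unlike each other. The hexamer-bearing probe, A_55_P1997741, at chr2:167302432-167302491 gave 31782 in the knockout and 33772 in the control on array 1, and 29297 and 23534 on array 2. The control was brighter on the first array and the knockout on the other. The log2 ratios were -0.09 and 0.32, a mean of 0.11 ± 0.29 (SD of 2 arrays). The junction probe, A_52_P296996, covers chr2:167297049-167298939, a span of 1891 bases of which 1831 are not in the probe. It gave 108 in the knockout and 210 in the control on array 1, and 232 and 95.3 on array 2. Both high values were in the Cy3 channel and both low ones in the Cy5 channel, whichever genotype was labelled. The log2 ratios of -0.96 and 1.29 gave a mean of 0.16 ± 1.59 (SD of 2 arrays).

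The contrast between the dyes, taken as 0.5 times the difference between the arrays' log2 ratios, was -1.12 for this Slc9a8 probe, and 2.24% of all probes above background had a contrast larger in size. It was -0.56 for the Slc9a3 junction probe, -0.38 for Slc9a7, 0.22 for Slc9a4, -0.20 for the other Slc9a8 probe, -0.03 for the other Slc9a3 probe and 0.02 for Slc9a2. The median size of the contrast was 0.22 over the exchanger probes and 0.22 over all probes.

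**Figure D2:**
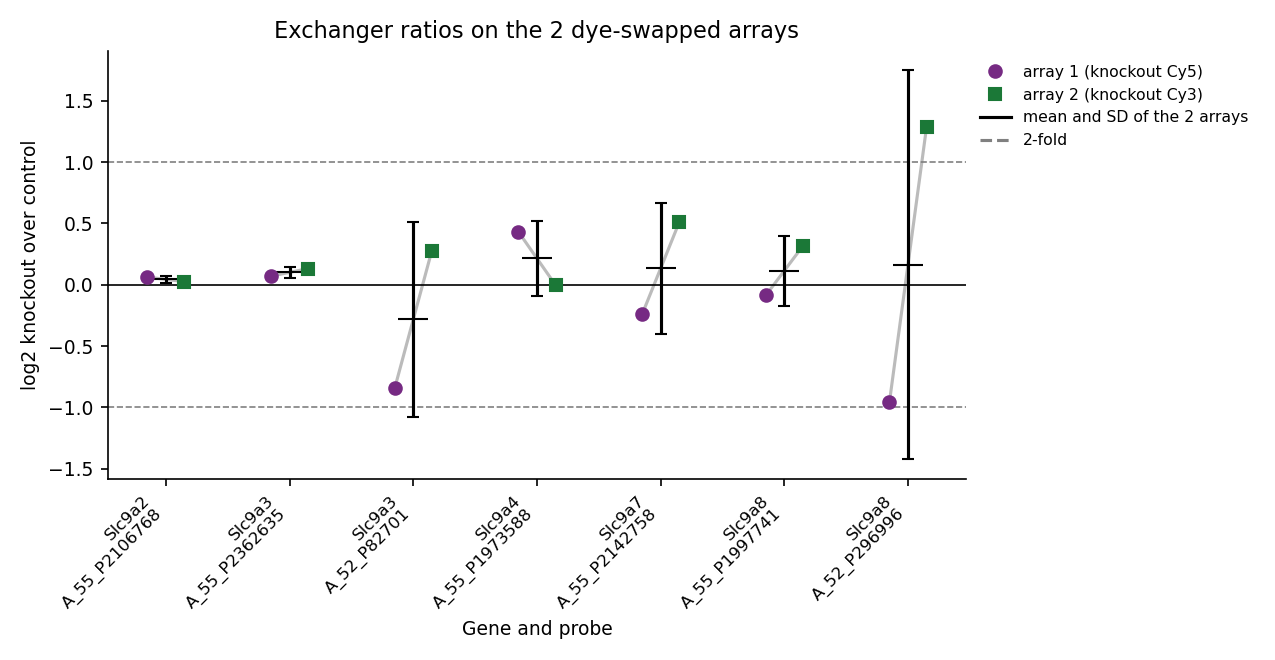
The log2 ratio of knockout over control for the 7 exchanger probes above background, array 1 as circles and array 2 as squares, with the mean and SD of the 2 arrays in black and 2-fold as dashed lines. The Slc9a2 ratios (0.06 and 0.03) and those of Slc9a3 A_55_P2362635 (0.07 and 0.13) stay on one side of 0, and the other 5 probes have points on both sides.

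**Figure D3:**
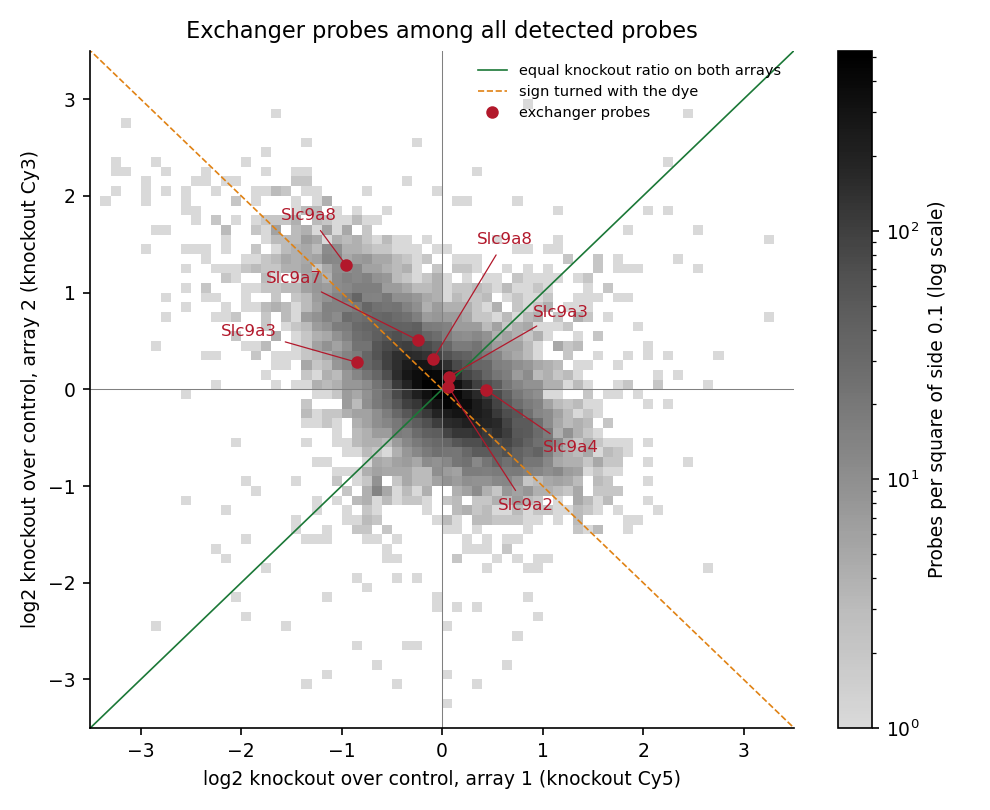
The log2 ratio of knockout over control on array 1 (horizontal) against array 2 (vertical), as counts of all 24594 probes above background in grey squares on a log scale, with the 7 exchanger probes in red. The cloud runs along the dashed line on which the sign turns with the dye, and the exchanger probes lie within it, the Slc9a8 junction probe at its upper left. Beyond the axis limit of 3.5 lie 17 probes.

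Among the organelle exchangers, Slc9a7 was above background at 1 of its 2 probes. A_55_P2142758, on the minus strand of chrX:19682881-19682940, gave 28.6 in the knockout and 33.9 in the control on array 1, and 29.7 and 20.8 on array 2. The knockout signals lay between the control signals. The log2 ratios of -0.24 and 0.51 had a mean of 0.13 ± 0.53 (SD of 2 arrays). The other Slc9a7 probe, A_52_P85791, lies on the minus strand at chrX:19739277-19739336, and all 4 of its processed signals (2.50 to 3.14) were surrogates that the scanner software put in place of values too near background, so it has no usable ratio.

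Slc9a5 and Slc9a9 were not well above background in either genotype on either array, and no fold is given for them. Slc9a5, known mainly from brain, is read at chr8:107893713-107893772, where raw signals were 52.3 to 70.2 against local backgrounds of 36 to 45. Slc9a9, whose NHE9 lies in late endosomes, is read at chr9:95129265-95129324, where raw signals were 62.0 to 71.4 against local backgrounds of 31 to 42. For the Slc9a7 probe with surrogates they were 47.1 to 66.2 against 31 to 51. Transcripts of both genes were thus not detectable with these probes, which does not show that they were absent.

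Under 6 other ways of making the ratios, the mean stayed between 0.09 and 0.11 for Slc9a3 A_55_P2362635, between 0.10 and 0.12 for Slc9a8 A_55_P1997741 and between 0.04 and 0.07 for Slc9a2. These are means over the dye swap, and the single arrays moved more. The scanner ratio, the value table and marked spots kept could not move them, since those repeat the reported ratios but for rounding. Only the loess settings and the background-subtracted signals could. The background-subtracted signals were used without dye normalization. With them the ratios on arrays 1 and 2 became 0.28 and -0.10 for that Slc9a3 probe, 0.28 and -0.08 for that Slc9a8 probe and 0.22 and -0.11 for Slc9a2. The means of the other probes, those with the least signal over background and the Slc9a8 junction probe, moved more. The Slc9a3 junction probe ran from -0.28 to -0.03, Slc9a4 from 0.05 to 0.25, Slc9a7 A_55_P2142758 from -0.02 to 0.20, with its sign turned only by the normal-exponential correction, and the Slc9a8 junction probe from 0.02 to 0.19.

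**Figure D4:**
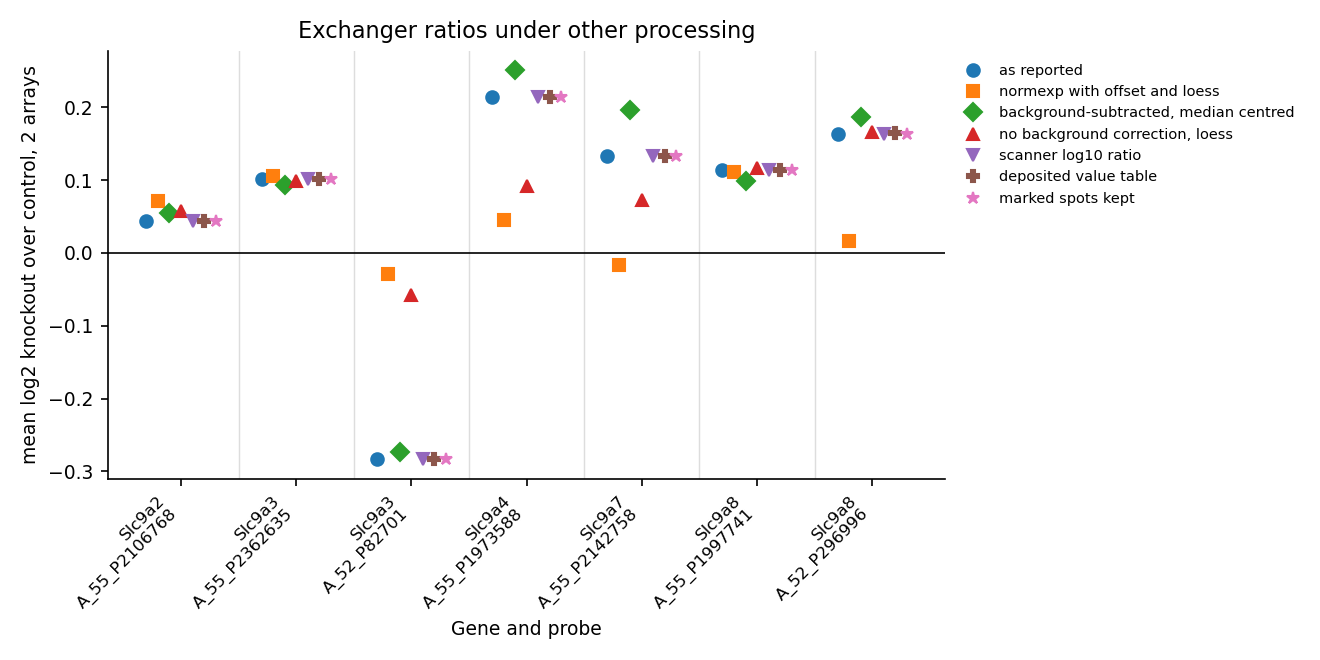
Mean log2 ratio of knockout over control over the 2 arrays for the 7 exchanger probes, as reported and under 6 other ways of making the ratio. Of these, the scanner ratio, the value table and marked spots kept repeat the reported ratios but for rounding. The means of Slc9a2, Slc9a3 A_55_P2362635 and Slc9a8 A_55_P1997741 each stay within a range of 0.04 to 0.12, though their single arrays do not, the other 4 probes lie nearest to 0 under the normal-exponential correction, and no value reaches the 2-fold limit of 1 in size.

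Proteins that bind, traffic or phosphorylate the exchangers were read for 12 of 15 listed genes, all above background, and none was called. Their median log2 ratio was -0.02, and 3 of the 12 had the same sign on both arrays, or 25%, beside 27.7% of all genes read by their brightest probe. The 3 were Sgk1, Shank2 and Tesc. Sgk1, the aldosterone- and glucocorticoid-induced kinase that acts on NHE3 and the epithelial sodium channel, was the highest of the list. Its signals were 7255 in the knockout and 4548 in the control on array 1, and 4872 and 3704 on array 2, with log2 ratios of 0.67 and 0.40 and a mean of 0.53 ± 0.20, short of 1.5-fold. Ahcyl1, the NHE3 activator also named IRBIT, was next at 0.44 and -0.20, a mean of 0.12 ± 0.45, and its second probe gave -0.79 and 1.04. The lowest were Shank2, a scaffold that binds NHE3, at -0.30 and -0.37 (mean -0.34 ± 0.05), and Tesc, a calcium-binding protein, at -0.27 and -0.06 (mean -0.16 ± 0.15). A second Shank2 probe gave -0.13 and 0.43, so the Shank2 probes disagreed in direction.

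Genes that handle acid and base along the tubule with NHE3 were read for 13 of 13 listed genes, all above background, and again none was called. The median log2 ratio was 0.05, and 5 of 13, or 38.5%, kept their sign between arrays, beside 27.7% of all genes read by their brightest probe. With 13 genes this difference was not tested. The lowest was Atp6v0a4, a subunit of the proton pump, with log2 ratios of -0.45 and -0.58 and a mean of -0.51 ± 0.09. Slc4a4, the sodium-bicarbonate cotransporter that returns to the blood the bicarbonate reclaimed through NHE3, followed at -0.35 and -0.29, a mean of -0.32 ± 0.04. A second Slc4a4 probe gave -0.34 and -0.26, and the remaining one gave 0.10 and -0.55. The highest were Atp6v1a, a proton pump subunit, at 0.79 and -0.43 (mean 0.18 ± 0.86), and Glud1, a glutamate dehydrogenase of ammonia formation, at 0.53 and -0.19 (mean 0.17 ± 0.51), and both turned sign with the dyes. The second Atp6v1a probe gave -0.12 and 0.02, a mean of -0.05 and so of opposite sign, and the second Glud1 probe 0.31 and -0.10, a mean of 0.10.

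**Figure D5:**
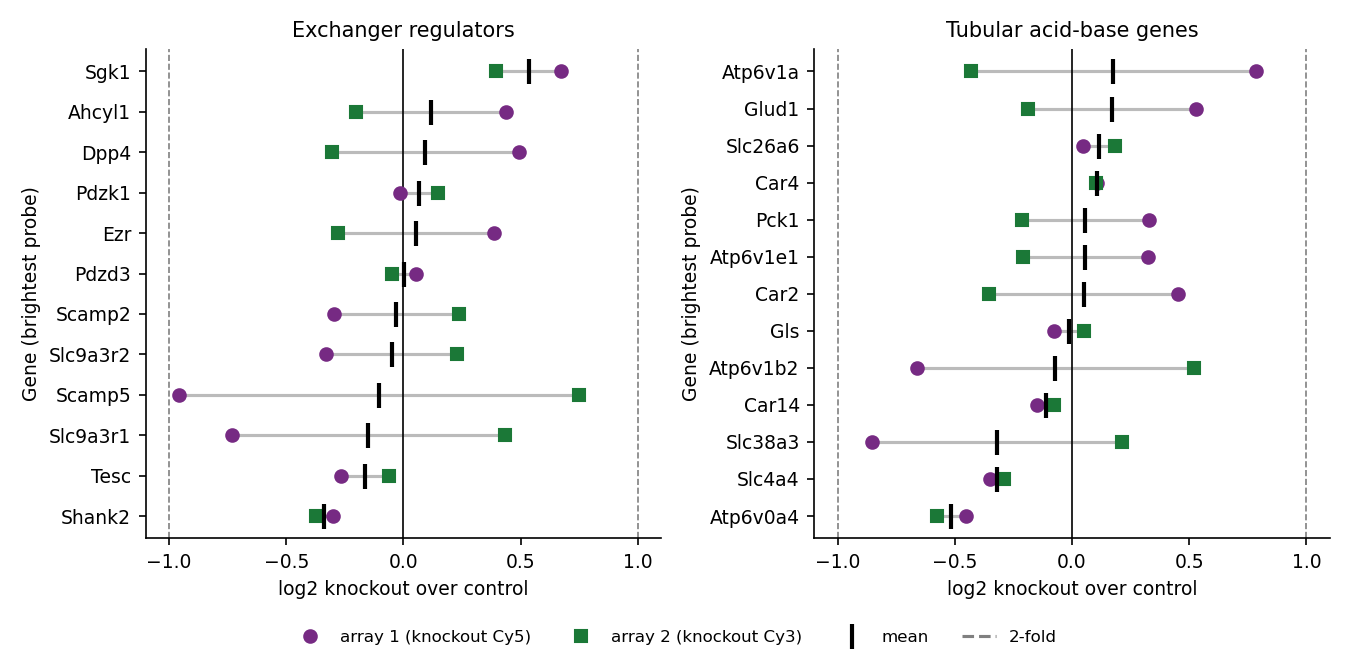
Log2 ratios of knockout over control for 12 genes of exchanger regulation (left) and 13 genes of tubular acid-base handling (right), each at its brightest probe, array 1 as circles, array 2 as squares and the mean as a black bar. Sgk1 and Atp6v0a4 are the genes farthest from 0 on one side in both arrays, at means of 0.53 and -0.51, and none reaches the dashed 2-fold lines.

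The deleted gene and the kidney markers were read on the same arrays. Cnnm2 fell from 4620 in the control to 626 in the knockout on array 1 and from 3247 to 591 on array 2, a mean log2 ratio of -2.67 ± 0.30, in the direction of the labels. All 7 proximal tubule markers were above background, with none called and a median of -0.08. Of 5 distal convoluted tubule markers, 3 were called lower (Pvalb, Trpm6 and Calb1), where 0.284% of all genes at their brightest probe were. The study itself listed Pvalb and Trpm6 as lower from these same arrays, so the count is not independent of its list. Slc12a3, the defining marker of that segment, had -0.78 and 0.19 and was not called, and none of 5 thick ascending limb markers was called. In whole kidney, fewer cells of a type and less RNA per cell cannot be told apart. No exchanger probe was called, so no marker list was set against one.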

How the data were processed

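Total RNA of whole kidney was amplified from a poly(A) primer, labelled with Cy3 or Cy5 and hybridised in a dye swap to 2 arrays. The authors deposited the scanner output of each array, with processed intensities that Agilent Feature Extraction (10.7.3.1 per the file headers, 10.5.1.1 in the submitters' processing notes) had background-subtracted and dye-normalized, and its log10 ratio of red over green, equal to that of the processed intensities wherever no surrogate was used. The deposited value table held the same log10 ratios with the sign turned to knockout over control. Probe positions are those of the files (mm9).

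Spots marked as non-uniform or population outliers were left out (141 and 175 of 43020 gene spots; no exchanger spot was marked), spots of a probe were averaged, and log2 of the knockout signal over the control signal was taken per array, with its direction from the dye labels. Log2 values are computed from the deposited intensities. A probe counted as above background where a genotype was well above it on array 1 and array 2 alike. Between 62.6% and 68% of gene spots were so in a channel, and no spot was saturated. A call needed a mean of at least 2-fold and the same sign on both arrays. Genes of the lists were read by their brightest probe (mean log2 signal). The genes named are every member, the called, 2 highest and 2 lowest genes above background of the lists of exchanger regulators and tubular acid-base genes, and Cnnm2; some further genes are not reported here; second probes of the same genes and the called distal convoluted tubule markers were added after their values were seen. Members and lists were chosen with earlier results of these data known. Precision is limited by having only 2 arrays and, for dim probes, by signal over background. Differences between animals were not measured.

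Alternatives were limma 3.58.1 in R 4.3.3 (normal-exponential correction with offset 50, or none, each with loess), background-subtracted signals with a floor of 1 (centred on the array median, with no dye normalization), the scanner ratio, the value table, other probe filters, each array alone, the contrast between the dyes, and the methods' t-test. Calculations used Python 3.11.15, pandas 2.3.3 and numpy 2.4.6, and the rules were tested on simulated data. All 7 symbols were found in the RefSeq gene table, whose coordinates, of another build, were not used.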

Additional observations from a re-analysis of the deposited data

How the results depend on the processing

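The absence of calls among the 7 exchanger probes held under both background corrections with loess, background-subtracted signals, a limit of 1.5-fold, and the methods' t-test. Without a filter on dim probes none of the 10 was called, but the 3 added probes were not above background and say nothing here. The absence of calls could not have differed with the scanner ratio, the value table, marked spots kept, the filter on both genotypes or 1 probe per gene. Those repeat the ratios of the 7 probes, or of a part of them, but for rounding. The methods' t-test, on the 2 paired arrays, gave none of the 7 probes under its unadjusted limit of 0.1. Of 24594 probes, 1183 passed that limit, 47 of them also past 2-fold. Slc9a9, left out as not above background, had an unadjusted p of 0.073 in this t-test. After Benjamini-Hochberg adjustment its smallest value over all probes was 0.999994, so with 2 arrays the adjusted test could call none and says nothing of the exchangers. With each array alone the number called ranged from 0 to 1, the 1 being the Slc9a8 junction probe on array 2 (without array 1). Over all 24594 probes, 748 were called higher and 326 lower on array 2 alone, and 497 and 739 on array 1 alone. The family median ranged from -0.09 to 0.28. The contrast between the dyes, which only turns the sign of array 2, gave 1 exchanger probe past the limit and a median of -0.20. Over all 24594 probes, 189 passed the limit upward and 597 downward. The 5 of 7 with one sign in this contrast are by construction those whose reported sign turned between arrays, beside 73% of all probes. The number of probes with one sign on both arrays, 2 as reported, was 1 under the normal-exponential correction (Slc9a3 A_55_P2362635), 1 with background-subtracted signals (Slc9a4, at 0.32 and 0.18) and 3 with no correction and loess, where Slc9a4 joined the reported 2. The cause was not tested. The counts over all probes also moved. Calls over all probes, 77 higher and 64 lower as reported, were 12 and 9 with the normal-exponential correction, 17 and 13 with no correction, 290 and 222 without a filter on dim probes, and 43 and 30 where both genotypes had to be above background. No paired analysis was possible because the labels give no animals to pair across genotypes; the methods' t-test pairs only the channels of each array. Signal over background limits Slc9a4, Slc9a7 and the Slc9a3 junction probe most, and leaves Slc9a5 and Slc9a9 unmeasured.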

Other observations

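The dye contrast differed between probes that hold AATAAA or ATTAAA and those that do not, a split made after seeing the exchanger values. Over all probes above background, 4664 held a hexamer, with a median size of the contrast of 0.17, and 19930 did not, with a median size of 0.24. With their signs, the medians were -0.04 and 0.03. Signal level was not matched between these groups. Among the exchangers, the 4 probes with a hexamer had contrasts between -0.38 and 0.22, and the junction probes of Slc9a3 and Slc9a8, without one, had -0.56 and -1.12, whereas Slc9a2, also without one, had 0.02.

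The 6 intercalated cell markers had a median of -0.18 and the 5 principal cell markers one of -0.15, and none of either was called. Of them, 3 of 6 and 2 of 5 had the same sign on both arrays. The median of every other marker list was also negative, among them -0.27 for podocyte and -0.21 for red blood cell markers.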
